A study of Arabidopsis thaliana with 4 samples.

Results

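The genes described here are 10 light signalling genes of Arabidopsis thaliana, of 33602 gene models counted. They are 7 basic helix-loop-helix (bHLH) factor genes, PIF1 (AT2G20180), PIF3 (AT1G09530), PIF4 (AT2G43010), PIF5 (AT3G59060), PIF7 (AT5G61270), PIL1 (AT2G46970) and PIL2 (AT3G62090), and 3 genes of the COP1 branch, COP1 (AT2G32950), SPA3 (AT3G15354) and CIP4 (AT5G37190). They were chosen by locus, as members of this pathway, after earlier results of the same libraries had been seen, and CIP4 was selected on its difference between genotypes. Their differences are therefore given as descriptions and not as tests, and calls of the fit over all genes are named for them only as such. All 10 had a gene model in the files, and 8 had enough counts to enter the fit; PIL1 and PIL2 did not.

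The RNA came from aerial organs of plants grown on soil to Boyes growth stage 1.09, a late rosette stage, for the otp90 knock-out (line SM_3_29659, 2 libraries) and for wild-type Col-0 (2 libraries). Both genotypes grew at 18 to 21 °C, in light between 0 and 90 µE per square metre and second, and had no treatment. The otp90 group is 1 line, and the labels do not give the hour of harvest or say whether a genotype's libraries were made from different plants. P-values then measure only library-to-library spread, and that spread may be technical. The targeted gene itself was not analysed here, so it gives no check of the genotype labels.

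Gene counts outside rRNA summed to 1374590 and 1750669 in otp90 replicates 1 and 2, and to 2503502 and 1723267 in Col-0 replicates 1 and 2. Leaf genes were abundant in every library, and the Rubisco activase gene RCA alone was at 11510 and 9327 CPM (TMM-scaled counts relative to library size) in otp90 and 6231 and 9650 CPM in Col-0. The 5 leaf markers summed to 19878 and 14013 CPM in otp90 and 11394 and 19025 CPM in Col-0. The 5 flower markers summed to at most 5.55 CPM in otp90, against 8.53 CPM in Col-0, and the 5 seed markers to at most 8.33 and 9.62 CPM. The 5 root markers summed to 34.1 and 107.7 CPM in otp90 and 32.9 and 35.7 CPM in Col-0, mostly from PYK10, while the root gene TIP2;3 had no count in either otp90 library and 2 and 0 counts in Col-0. In bulk organs, fewer cells of a type and less RNA per cell cannot be told apart.

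Phytochrome-interacting factors (PIFs) are bHLH transcription factors that promote elongation growth and restrain greening. Light-activated phytochromes bind them and mark them for degradation, and the clock sets the time of day at which PIF4 and PIF5 are transcribed. COP1 is a ubiquitin ligase that acts with SPA proteins in the dark to remove factors of light growth such as HY5, and in that state PIF proteins accumulate.

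Per length of gene model, PIF5 and PIF4 had the highest means of the 10 genes over all 4 libraries, while in otp90 alone PIF4 and PIF7 were nearly level. PIF5, which acts in shade and dark growth, averaged 31.1 ± 24.4 RPKM (TMM-scaled CPM per kilobase) in otp90 and 29.9 ± 29.8 RPKM in Col-0 (SD, n = 2 each). PIF4, the main PIF of growth in warmth, averaged 14.7 RPKM in otp90, from libraries at 21.8 and 7.60 RPKM, and 20.8 ± 16.9 RPKM in Col-0. PIF7 averaged 14.9 ± 8.40 RPKM in otp90 and 6.77 ± 3.73 RPKM in Col-0 (SD, n = 2 each). Over the 4 libraries the order by mean RPKM was PIF5 (30.5), PIF4 (17.7), PIF7 (10.8), SPA3 (10.5), COP1 (10.5), PIF1 (6.29), CIP4 (5.66), PIF3 (5.35), PIL2 (1.24) and PIL1 (1.12). The ranges of every pair of neighbours in this order overlapped over the 4 libraries. Taken library by library, PIF3 lay above PIL2 in all 4, and no other neighbours kept their order in every library. PIF5 lay above PIF4 in both otp90 libraries (48.4 against 21.8 RPKM and 13.9 against 7.60 RPKM) and in Col-0 replicate 1 (51.0 against 32.7 RPKM). In Col-0 replicate 2 the levels were 8.79 RPKM for PIF5 and 8.82 RPKM for PIF4.

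**Figure D1:**
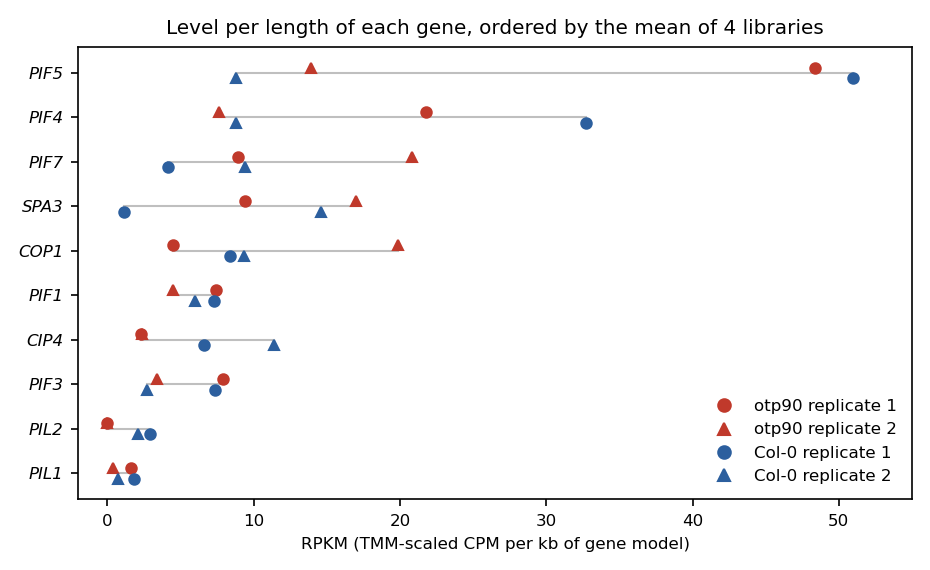
Level of each gene in RPKM on the horizontal axis, with genes ordered from top to bottom by their mean over the 4 libraries, otp90 in red and Col-0 in blue, circles for replicate 1 and triangles for replicate 2. Grey lines span the lowest to the highest library; PIF5 spans 8.79 to 51.0 RPKM and PIL1 stays at or under 1.84 RPKM.

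Between genotypes, CIP4 and PIL2 had both otp90 libraries below both Col-0 libraries, and the other 8 genes overlapped. CIP4 encodes a nuclear protein that binds COP1 and promotes light growth. It had 8 and 12 counts in otp90 replicates 1 and 2, against 47 and 61 counts in Col-0 replicates 1 and 2. Scaled to library size these were 6.49 and 6.66 CPM in otp90 and 18.8 and 32.5 CPM in Col-0. The otp90 libraries were nearly level and the Col-0 libraries were apart from each other and above them. The log2 fold change in the edgeR fit was -1.95 (SE 0.60), and it lay between -2.27 and -1.50 when any 1 library was left out. Within replicate numbers the log2 difference was -1.40 in number 1 and -2.12 in number 2.

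PIL2, also named PIF6, is a PIF3-like gene described mainly in seeds. It had 0 counts in both otp90 libraries, against 13 and 7 counts in Col-0 replicates 1 and 2. In Col-0 this was 5.21 and 3.73 CPM, while 3 counts, the limit that a count of 0 allows, correspond to 2.44 and 1.67 CPM in otp90 replicates 1 and 2. Summed over both libraries, the otp90 to Col-0 ratio of PIL2 had a 95% exact counting interval of 0 to 0.292, which covers counting error only. Its gene overlaps AT3G62080 and AT3G09745 on the opposite strand in the annotation. The sources used here do not say if strand was used in counting. AT3G62080 had 10 and 16 counts in otp90 and 25 and 17 counts in Col-0, so it was detected in all 4 libraries. AT3G09745 was not among the gene models counted. PIL2 fell under the filter on low counts, and without that filter it was not called by edgeR.

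In the fit, 0 of the 8 tested genes were called between otp90 and Col-0 at an adjusted p under 0.05, as were 0 (0%) of all 11938 genes tested by edgeR. DESeq2 also called 0. At an unadjusted p under 0.05 there was 1 of the 8, CIP4, beside 1.41% of all genes. Separation with both otp90 libraries lower was seen in 1 of the 8 (CIP4), beside 13.5% of all genes tested. CIP4 was selected on this contrast, so nothing is read from these counts.

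**Figure D2:**
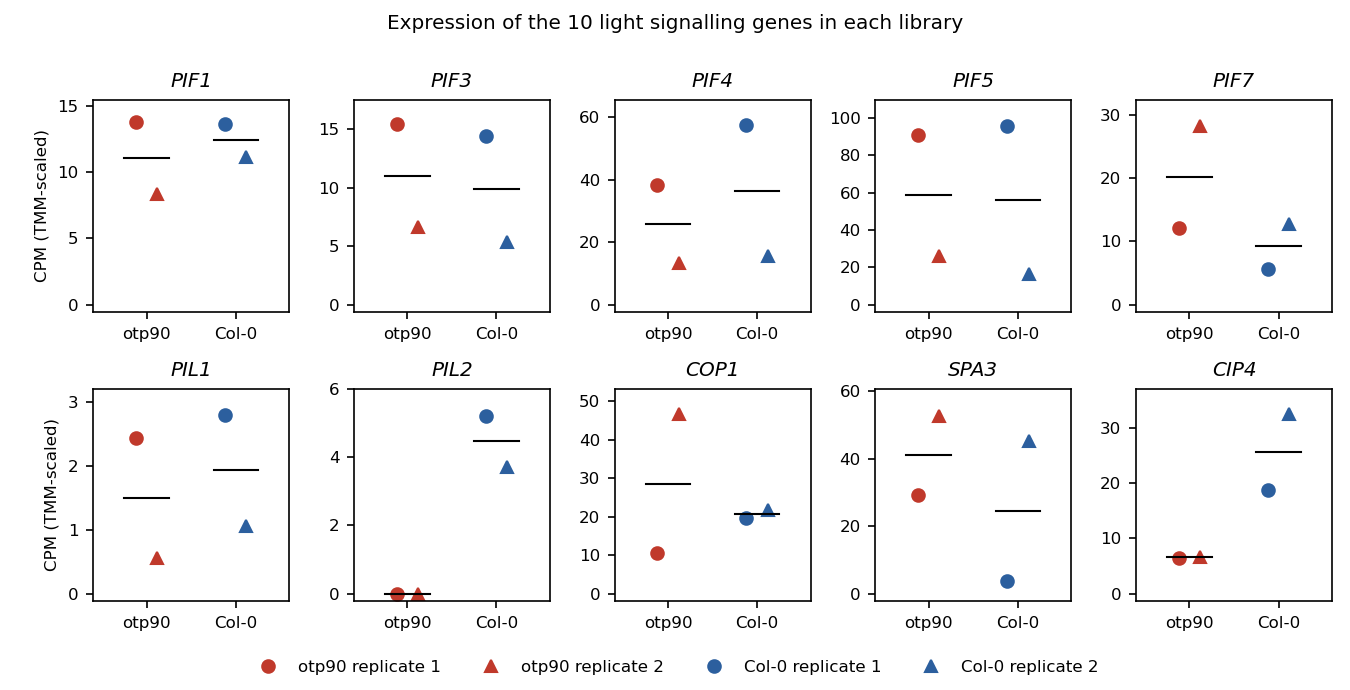
TMM-scaled CPM of each gene in each library, with a panel and a linear vertical axis from 0 for each gene, otp90 left of Col-0, circles for replicate 1, triangles for replicate 2 and bars for the mean of 2 libraries. CIP4 and PIL2 lie lower in both otp90 libraries, while in PIF3, PIF4 and PIF5 both circles lie above both triangles.

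PIF3, PIF4 and PIF5 lay farther apart between the libraries of a genotype than between the genotype means. PIF5 had 112 and 47 counts (90.9 and 26.1 CPM) in otp90 replicates 1 and 2, against 239 and 31 counts (95.8 and 16.5 CPM) in Col-0. Its high and low library were alike in the 2 genotypes, and the log2 fold change was 0.04 (SE 0.83). PIF4 had 47 and 24 counts (38.2 and 13.3 CPM) in otp90, against 143 and 29 counts (57.3 and 15.5 CPM) in Col-0. In both genotypes replicate 1 was the high library, and the log2 fold change was -0.53 (SE 0.72). With 1 library left out it lay between -1.43 and 0.73, and without otp90 replicate 2 (0.08) or without Col-0 replicate 1 (0.73) it was positive.

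PIF3, the first PIF found to bind phytochrome B, had 19 and 12 counts (15.4 and 6.66 CPM) in otp90 and 36 and 10 counts (14.4 and 5.33 CPM) in Col-0. Its log2 fold change of 0.12 (SE 0.75) turned negative without otp90 replicate 1 (-0.56) or Col-0 replicate 2 (-0.40). PIF1, which restrains seed germination in the dark, had 17 and 15 counts (13.8 and 8.33 CPM) in otp90 and 34 and 21 counts (13.6 and 11.2 CPM) in Col-0. Its values were the closest together of the 8 tested genes, at a log2 fold change of -0.18 (SE 0.62), which was 0.17 without otp90 replicate 2. PIL1, a gene induced early in shade, had 3 and 1 counts in otp90 and 7 and 2 counts in Col-0. At this depth a genotype difference in PIL1 was not resolved. Summed over both libraries, its otp90 to Col-0 ratio was 0.641. The 95% exact counting interval was 0.144 to 2.30, which covers counting error only.

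PIF7, a shade and warmth factor that is not readily degraded in light, had the higher value in otp90 within both replicate numbers. It had 15 and 51 counts (12.2 and 28.3 CPM) in otp90, against 14 and 24 counts (5.61 and 12.8 CPM) in Col-0. In each number the otp90 library was the higher, by 0.99 in number 1 and 1.08 in number 2 on the log2 scale, but the lower otp90 library lay under the higher Col-0 library. The log2 fold change was 1.16 (SE 0.69), and it ran from 0.44 without otp90 replicate 2 to 1.87 without Col-0 replicate 2. PIF7 overlaps AT5G61260 on the opposite strand, which had at most 3 counts in any library.

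For COP1 and SPA3 the direction between genotypes rested on a single library. COP1 had 13 and 84 counts (10.6 and 46.6 CPM) in otp90 replicates 1 and 2, against 49 and 41 counts (19.6 and 21.9 CPM) in Col-0. The otp90 libraries lay on either side of both Col-0 libraries, and the log2 fold change of 0.48 (SE 0.67) was -0.94 without otp90 replicate 2. SPA3, a partner of COP1 in the ligase complex, had 36 and 95 counts (29.2 and 52.8 CPM) in otp90, against 9 and 85 counts (3.61 and 45.3 CPM) in Col-0. Col-0 replicate 1 stood far below the other 3 libraries. The log2 fold change of 0.77 (SE 0.91) was 3.50 without Col-0 replicate 2, where edgeR called SPA3 higher in otp90 (adjusted p = 0.0191), and -0.12 without Col-0 replicate 1. SPA3 overlaps AT3G15350 on the opposite strand, which had 15 and 15 counts in otp90 and 25 and 28 counts in Col-0.

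**Figure D3:**
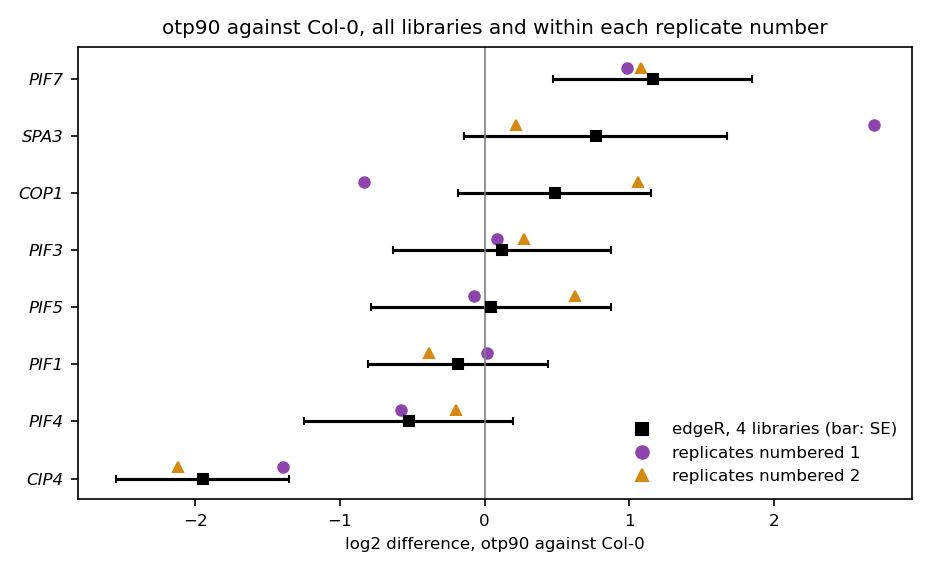
Log2 difference of otp90 against Col-0 on the horizontal axis for the 8 tested genes, as the edgeR fold change of 4 libraries with its SE (black squares and bars) and as the difference between the libraries numbered 1 (circles) or 2 (triangles). CIP4 lies at -1.95 with both numbers below 0, PIF7 at 1.16 with both above 0, and COP1 has its numbers on opposite sides of 0.

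Between replicate numbers the genes other than CIP4 and PIL2 fell into a lower and a higher group. PIF5 read 26.1 CPM (otp90) and 16.5 CPM (Col-0) in number 2, against 90.9 and 95.8 CPM in number 1, a log2 fold change of -2.16 (SE 0.48) with genotype as a term. PIF4 read 13.3 CPM (otp90) and 15.5 CPM (Col-0) in number 2, against 38.2 and 57.3 CPM in number 1, and its log2 fold change was -1.71 (SE 0.50). PIF3 had -1.32 (SE 0.68) and PIF1 -0.49 (SE 0.65), and PIL1, with few counts, was lower in number 2 in both genotypes. The 7 PIF and PIL genes together summed to 83.3 CPM (otp90) and 66.1 CPM (Col-0) in number 2, against 172.9 and 194.8 CPM in number 1. Most of the number 1 sum was PIF5 and PIF4, and the sum includes PIF7, which was higher in number 2.

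SPA3, PIF7 and COP1 were higher in number 2 in both genotypes. SPA3 had a log2 fold change of 2.09 (SE 0.65), with a difference of 0.83 within otp90 and 3.31 within Col-0. PIF7 had 1.20 (SE 0.62), with 1.15 within otp90 and 1.05 within Col-0. Among the 10 genes, it was the single tested PIF gene with this direction. UNE10 (PIF8), which is not among the 10, had 0.99 (SE 0.64). COP1 had 1.09 (SE 0.60), of which nearly all came from otp90, at 2.04, while Col-0 differed by 0.15. CIP4 had 0.49 (SE 0.62), with 0.03 within otp90 and 0.75 within Col-0, and its 4 libraries overlapped by number.

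By edgeR, 0 of the 8 tested genes were called between numbers at an adjusted p under 0.05, beside 0.804% of all genes tested. PIF5 was closest to the threshold (adjusted p = 0.0545), and DESeq2 called it lower in number 2 (adjusted p = 0.0382). At an unadjusted p under 0.05 there were 3 of the 8, PIF5, PIF4 and SPA3, beside 8.76% of all genes. Both number 2 libraries lay below both number 1 libraries in 4 of the 8, beside 20.5% of all genes, and above them in 3 of the 8, beside 21.0%. The genes were chosen with earlier results of these libraries known, so nothing is read from these counts. The labels do not say what libraries of a number share, and what the numbers stand for was not tested.

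**Figure D4:**
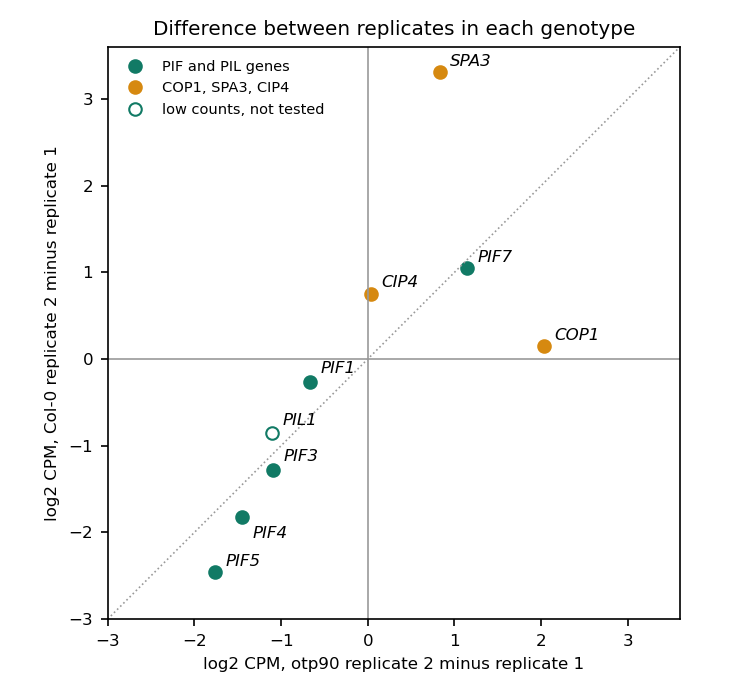
Difference in log2 CPM between replicate 2 and replicate 1 within otp90 (horizontal axis) and within Col-0 (vertical axis) for 9 genes, without PIL2, which had no count in otp90; the dotted line marks equal differences. PIF1, PIF3, PIF4, PIF5 and PIL1 lie below 0 on both axes, and PIF7, SPA3 and COP1 above 0 on both.

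Among themselves, the tested genes that were most alike over the 4 libraries were PIF3 and PIF4, at a Euclidean distance of 0.73 between log2 CPM values centred on each gene's mean. PIF4 and PIF5 followed at 0.83, and PIF7 was closer to COP1 (1.29) than to any other PIF gene. PIF5 and SPA3 were farthest apart, at 4.62. Of the 8638 other genes with at least 10 CPM on average, the nearest to PIF5 were AT2G27830 (0.14) and WRKY15 (0.21). The nearest to SPA3 were F3H (0.28) and SQE6 (0.31), and the nearest to CIP4 were PHB (0.29) and SR30 (0.49). PHB stood at 4.06 and 4.44 CPM in the otp90 libraries and 15.2 and 19.7 CPM in those of Col-0, so the same 2 libraries were low in both genes. With 4 libraries, many genes can lie close to any profile, and these distances are descriptions.

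The rest of the pathway was read from lists holding 97 genes, of which 72 were tested and 0 passed between otp90 and Col-0 by edgeR or DESeq2. At an unadjusted p under 0.05 edgeR gave 3 of the 72, beside 1.41% of all genes tested by edgeR. DESeq2 gave 2 of the 72, beside 96 of all 11938 genes. The 10 photoreceptor genes were all tested, with 3 positive and 7 negative log2 fold changes and a median of -0.12, beside -0.01 over all genes tested. PHYA, the phytochrome that accumulates in the dark, stood at 303 and 81.6 CPM in the otp90 libraries and 521 and 157 CPM in those of Col-0 (log2 fold change -0.82, SE 0.74).

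Of 17 COP1 substrates and light-promoted regulators, 7 were tested, 5 positive and 2 negative, with a median of 0.06. HYH, a close relative of HY5, had 9 and 18 counts in otp90 and 0 and 4 counts in Col-0. HY5, the bZIP factor that COP1 removes, stood at 8.12 and 20.5 CPM in the otp90 libraries and 1.20 and 14.4 CPM in those of Col-0 (log2 fold change 0.93). Of 16 genes listed as inhibitors and modifiers of PIF proteins, 14 were tested, 5 positive and 9 negative, with a median of -0.24. UNE10, which this list also holds, is itself a PIF gene (PIF8) and is counted among the positive ones. It stood at 27.6 and 32.2 CPM in otp90 and 2.81 and 11.7 CPM in Col-0 (log2 fold change 2.07, SE 0.70). RGL3, a DELLA protein gene of the family that binds and blocks PIFs, stood at 2.44 and 2.22 CPM in the otp90 libraries and 9.62 and 9.06 CPM in those of Col-0 (log2 fold change -1.98, SE 0.80). HYH, UNE10 and RGL3 were the 3 genes under an unadjusted p of 0.05.

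No target of PIFs in the lists passed between genotypes. Of 15 genes that PIFs induce, 7 were tested, 6 positive and 1 negative, with a median of 0.08, and 0 passed. ATHB2, a homeobox gene of the shade response, stood at 18.7 and 2.22 CPM in the otp90 libraries and 15.6 and 3.73 CPM in those of Col-0 (log2 fold change 0.04, SE 1.02). DWF4, the induced gene with the smallest p in the genotype fit, had a log2 fold change of 0.86 (SE 0.66). All 6 genes that PIFs repress were tested, 3 positive and 3 negative, with a median of 0.11. PSY, the phytoene synthase gene of carotenoid synthesis, stood at 195 and 283 CPM in the otp90 libraries and 101 and 233 CPM in those of Col-0 (log2 fold change 0.52, SE 0.53). GLK2, the repressed gene with the smallest p in the genotype fit, had 0.66 (SE 0.43). Of 10 clock genes that regulate PIF4 and PIF5, 8 were tested, 2 positive and 6 negative, with a median of -0.57.

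Between replicate numbers, 3 of the 72 tested genes of these lists passed by edgeR, beside 0.804% of all genes tested. The clock genes PRR7 and GI fell in number 2, and RGL2, a DELLA gene, rose. PRR7 read 1.11 CPM (otp90) and 7.46 CPM (Col-0) in number 2, against 29.2 and 80.6 CPM in number 1 (edgeR log2 fold change -3.81, adjusted p = 0.00503). GI was at 6.11 and 11.7 CPM in number 2, against 31.7 and 65.7 CPM in number 1 (-2.43, adjusted p = 0.047). RGL2 was at 27.2 and 36.2 CPM in number 2, against 1.62 and 6.01 CPM in number 1 (3.08, adjusted p = 0.0491). PRR7 passed under every scaling, filter and test tried. GI and RGL2 did not pass with DESeq2 size factors (adjusted p = 0.0535 and 0.0584) or with scaling on nuclear genes (0.0709 and 0.0823), and GI did not pass with DESeq2 (0.0575). Of the 7 tested PIF-induced genes 6 were negative, beside 5780 of all 11938 genes tested. The median of these genes was -1.12, beside 0.03 over all genes. ATHB2 was at -2.50 (SE 0.75), while PORC, the 1 positive gene, was at 1.17 (SE 0.46). Of the 6 PIF-repressed genes 3 were positive and 3 negative between numbers, with a median of -0.24. SPA4, the relative of SPA3, had 40 counts in otp90 and 51 counts in Col-0 of number 2, against 7 and 5 counts in number 1, and HY5 was at 2.26 (SE 0.78). PHYA was lower in number 2, at -1.81 (SE 0.45), and neither PHYA, SPA4 nor HY5 passed.

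**Figure D5:**
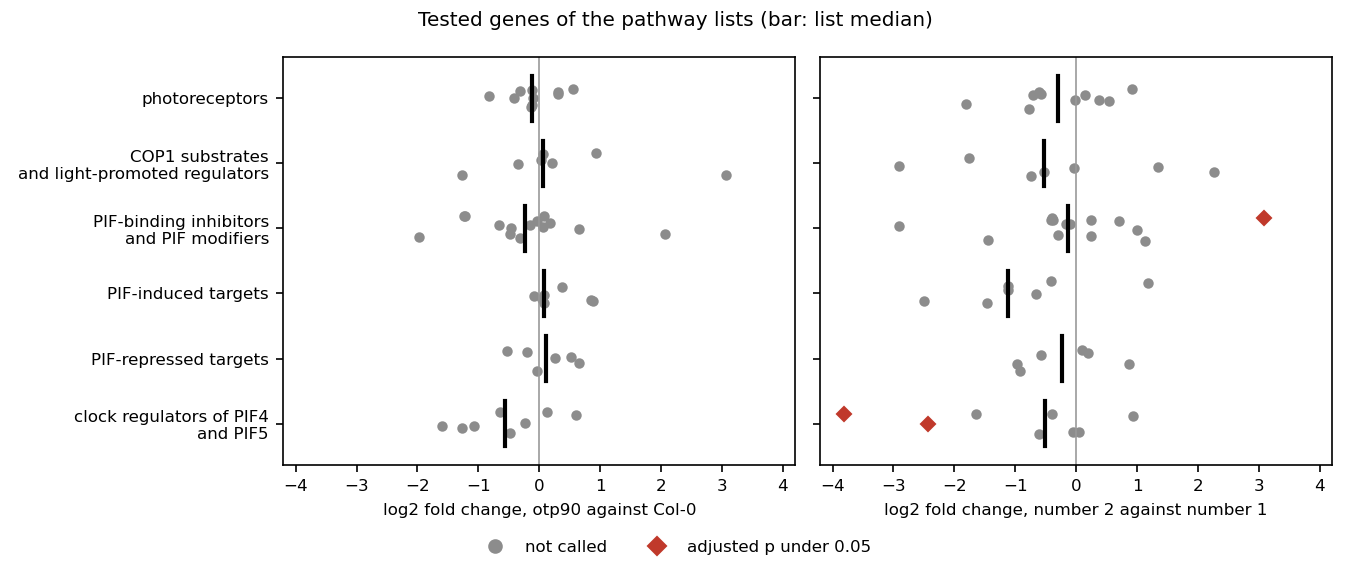
Log2 fold change of each tested gene of 6 pathway lists, otp90 against Col-0 on the left and number 2 against number 1 on the right, with 1 point per gene and a bar for the list median. Red diamonds mark genes called by edgeR at an adjusted p under 0.05, of which there are 0 on the left and 3 on the right (PRR7, GI and RGL2).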

How the data were processed

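The authors deposited raw read counts and lengths per gene model, made with sam2pkm, per the file headers. Before counting, 79.9% to 87.0% of mapped reads were dropped because their top 2 alignments scored equally, per the file headers. The submitters' processing notes name TAIR10 as the build; no aligner is named in the sources used here. Names and overlapping genes came from TAIR10.1, which matched 32835 of 33602 models. The builds differ, so no coordinates or sequences are printed.

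The 15 rRNA models were left out. Genes were kept by filterByExpr (11938), scaled by TMM and tested across all genes by edgeR 4.0.16 (R 4.3.3; quasi-likelihood, two-sided), otp90 against Col-0 without a block and number 2 against number 1 with genotype as a term. Calls are at 0.05 after Benjamini-Hochberg adjustment. The standard error came from the fold change and its F statistic. Differences within a number or genotype are of log2 CPM with a prior count of 2. Alternatives were DESeq2 1.42.0, its size factors, scaling on nuclear genes, no filter, a replicate block and leaving out each library.

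Members and lists were chosen with earlier results of these data known. Named list genes come from the 3 with the smallest p of each list in either fit, and nearest genes were sought for the 3 members with the widest range. Replicates did not agree within sampling noise, with a chi-square statistic over its degrees of freedom of 14.4 for otp90 and 23.7 for Col-0. The separate result of 1 pathway list is not reported here.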

Additional observations from a re-analysis of the deposited data

How the results depend on the processing

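Genes called between otp90 and Col-0 were 0 with DESeq2, its size factors, scaling on nuclear genes, no filter or a replicate block, and 0 to 33 when 1 library was left out: 24 without otp90 replicate 1, then 30 and 33 when Col-0 lost its replicate 1 or 2. Of the 10 light signalling genes, SPA3 was called in the last of these, and no other was called under any alternative. A genotype left with 1 library is assumed there to vary like the other. The pathway lists gave 0 to 2 calls when 1 library was left out, PRR7 (-5.22) without otp90 replicate 1, and UNE10 (3.40) and PRR7 (-2.46) without Col-0 replicate 2. Between numbers the 96 calls became 214 without the low-count filter, where PIF5 (adjusted p = 0.0114) and SPA3 (0.0482) were called too. Leaving out a library there leaves no residual degrees of freedom, so it was not run, and the differences within each genotype stand in its place. The scalings moved the median log2 fold change of all genes by at most 0.02.

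Same-numbered libraries deviated together (correlation 0.22 across 11938 genes), but the labels do not say that a number marks a shared batch. With the replicate block CIP4 was at -1.92, PIF7 at 1.13, SPA3 at 1.38 and COP1 at 0.19, and the pathway lists gave 0 calls. The log2 fold changes of CIP4 and PIF7 kept their sign in all 9 alternatives. Those of the other 6 tested genes changed sign when 1 or 2 of the libraries were left out in turn. CIP4 was selected on this contrast and its genotypes did not overlap, so leaving out a library could hardly turn its sign. Nothing is read from the stable sign of CIP4. Counts of 20 and fewer per library, as in PIF1, PIF3, PIL1, PIL2 and CIP4 of otp90, limit what these libraries can resolve.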
